A study of Mus musculus with 4 samples.

Results

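The genes of cholesterol and fatty acid synthesis were followed across 4 RNA sequencing libraries of C3H10T1/2, an embryonic mouse line (strain C3H) used as a model of mesenchymal stem cells. The 31 genes were taken by symbol from the 54532 genes of the deposited count table, and all 31 passed the expression filter, a mean of at least 1 CPM (counts relative to library size, scaled by edgeR's TMM factors) over the 4 libraries, which kept 13233 genes. Cells received either a control siRNA or one that targets DNMT1, the enzyme that copies DNA methylation at replication, for 48 h. They were then left untreated (control and siDNMT1) or induced for osteoblast (OB) differentiation for 3 days (OB and siDNMT1_OB) in the presence of 50 µM ascorbic acid, 10 mM glycerophosphate and 0.001 µM dexamethasone. All 4 groups share the cell line and a medium with fetal bovine serum, which carries lipoprotein cholesterol, and none of the labels names a batch. Each group held 1 library, so no difference below has a replicate check, the pairwise comparisons have no p-value, and the intervals cover counting error only.

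Cells make cholesterol from acetyl-CoA through mevalonate, farnesyl pyrophosphate, squalene and lanosterol, and they make fatty acids from the same acetyl-CoA through malonyl-CoA. Both pathways are controlled by the SREBP transcription factors, which are held in the endoplasmic reticulum by SCAP and the INSIG proteins while sterols are plentiful and are cut and released to the nucleus when sterols run low. Cells with surplus sterol turn instead to the LXR nuclear receptors, which switch on cholesterol export through the transporter ABCA1.

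Dnmt1 was looked at first, as a check of the labels. It had 265 CPM in control against 132 in siDNMT1, and 85.4 in OB against 93.1 in the library labelled siDNMT1_OB. Its log2 fold change was −1.01 (95% counting interval −1.07 to −0.95) in siDNMT1 against control and 0.13 (0.04 to 0.21) in the library labelled siDNMT1_OB against OB, so after induction Dnmt1 was not lower with the DNMT1 siRNA, and every direction below that involves that library carries this limit. Total counts ran from 22296046 in OB to 27367792 in control. The mesenchymal markers were all present (5 of 5 passed the filter). All 5 were higher in OB than in control, with Pdgfra at 705 against 128 CPM. In the library labelled siDNMT1_OB against OB 3 were positive and 2 negative, from −0.77 for Pdgfra to 0.46 for Vim on the log2 scale. By contrast, 6 of 10 adipocyte markers, among them Plin1, Adipoq and Lep, stayed at or under a floor of 3 counts in every library. The other 4 passed the filter, Lpl only through its OB level. In the order control, siDNMT1, OB and the library labelled siDNMT1_OB, Fabp4 had 4.09, 2.81, 42.6 and 48.8 CPM, Cebpa 2.88, 7.38, 10.7 and 10.9, Lpl 0.369, 0.976, 2.08 and 1.08, and Pparg 33.8, 33.9, 45.5 and 32.1. They shared no direction in either pair. Of 7 osteoblast markers, Alpl and Bglap stayed at or under that floor everywhere. Ibsp had 1 count in control against 3 in siDNMT1, and 6 in OB against 17 in the library labelled siDNMT1_OB, and Sp7 had 5, 1, 8 and 4 counts in the same order. Spp1 was lower in OB (187 CPM) than in control (548 CPM), and Runx2 (72.7 against 75.5 CPM) and Col1a1 (9106 against 9643 CPM) differed little. In the library labelled siDNMT1_OB against OB these 3 had positive log2 fold changes, from 0.24 for Col1a1 to 0.54 for Spp1. In siDNMT1 against control Spp1 was at −1.41, and the other 2 were positive. The summed level of the adipocyte list was 41.2, 45.1, 101 and 92.9 CPM in the 4 libraries, in the order control, siDNMT1, OB and the library labelled siDNMT1_OB.

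Because the sterol enzymes shared a direction in the comparisons with the library labelled siDNMT1_OB, though not in the others, the promoters were read from RefSeq (GRCm38.p6), as the 250 bases before and 50 after each start. The table matched 25 of the 31 genes, all but Fdft1, Stard4, Sqle, Scd1, Fdps and Scd2. Shown here are the gene with a sterol response element of the form searched, Hmgcs1 (chr13:119690101-119690400, plus strand), 2 genes that passed 2-fold in the OB pair, Lss (chr10:76531355-76531654, plus strand) and Mvd (chr8:122443373-122443672, minus strand), and the 1 gene of the 31 that was 2-fold lower in that pair, Abca1 (chr4:53159846-53160145, minus strand). Capitals mark the sterol response element and the CCAAT box, which reads ATTGG on the opposite strand, and each sequence is written in the direction of its gene.
Hmgcs1: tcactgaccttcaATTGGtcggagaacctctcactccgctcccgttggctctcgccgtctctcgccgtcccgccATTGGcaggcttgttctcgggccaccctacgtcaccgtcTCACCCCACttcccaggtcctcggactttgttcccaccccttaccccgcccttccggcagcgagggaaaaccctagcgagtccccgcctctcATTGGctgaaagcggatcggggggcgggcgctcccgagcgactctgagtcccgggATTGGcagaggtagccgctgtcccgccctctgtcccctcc
Lss: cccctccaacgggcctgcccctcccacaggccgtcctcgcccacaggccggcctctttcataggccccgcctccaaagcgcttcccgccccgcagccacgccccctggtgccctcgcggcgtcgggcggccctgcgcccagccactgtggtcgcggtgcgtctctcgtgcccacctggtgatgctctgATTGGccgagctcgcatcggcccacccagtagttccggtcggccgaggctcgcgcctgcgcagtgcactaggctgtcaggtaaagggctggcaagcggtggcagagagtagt
Mvd: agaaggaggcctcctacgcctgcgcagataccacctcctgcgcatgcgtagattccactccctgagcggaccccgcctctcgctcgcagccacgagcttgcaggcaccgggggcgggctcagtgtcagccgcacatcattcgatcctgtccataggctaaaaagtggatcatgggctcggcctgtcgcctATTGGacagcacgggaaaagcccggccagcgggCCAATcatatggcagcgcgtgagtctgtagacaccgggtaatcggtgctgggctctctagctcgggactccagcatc
Abca1: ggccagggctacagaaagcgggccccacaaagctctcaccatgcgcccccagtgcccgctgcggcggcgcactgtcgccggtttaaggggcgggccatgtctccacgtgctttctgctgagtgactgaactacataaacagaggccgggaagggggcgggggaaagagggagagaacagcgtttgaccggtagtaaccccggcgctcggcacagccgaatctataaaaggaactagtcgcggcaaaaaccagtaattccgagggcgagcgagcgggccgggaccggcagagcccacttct

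The sterol response element was searched as TCACNCCAC on both strands. It was found in 1 of 25 genes, Hmgcs1, from base −137 to base −129 counted from the start, against 1.35% of the tested genes. Some genes have several starts, and here and below a gene was counted if any of its starts had a match. The CCAAT box, the site of the factor NF-Y, was present in 20 of 25 (80.0%), against 43.5% of the tested genes. Hmgcs1 had 4 copies, Mvd 2, Lss 1 and Abca1 0. The GC box GGGCGG stood in 21 of 25 (84.0%) against 69.8%, and the E-box form TCACGTGA in 0 of 25 against 2.29%. These are letter matches in a short window and were not tested for binding.

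To learn whether DNMT1 depletion touched lipid synthesis before and after induction, siDNMT1 was compared with control (the untreated pair) and the library labelled siDNMT1_OB with OB (the OB pair). The pairs share no library. In the OB pair all 18 sterol synthesis enzymes had positive log2 fold changes, from 0.34 for Ebp to 1.10 for Lss with a median of 0.78, while the median over all tested genes was 0.01. In the untreated pair the same 18 enzymes had a median of −0.06, with 7 positive and 11 negative. The summed level of the enzymes was 2104 CPM in control against 1877 in siDNMT1, and 1961 in OB against 3417 in the library labelled siDNMT1_OB, so 3 libraries lay close together and 1 stood above them. Each of the 18 was highest in that library, as were 26 of the 31 genes, against 18.9% of the tested genes; the exceptions were Srebf1, Scap, Abca1 and Acly, highest in OB, and Insig2, highest in control. In bulk RNA, more cells with high levels and more RNA per cell cannot be told apart, and markers of cycling cells, given further on, were also higher in the OB pair.

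**Figure D1:**
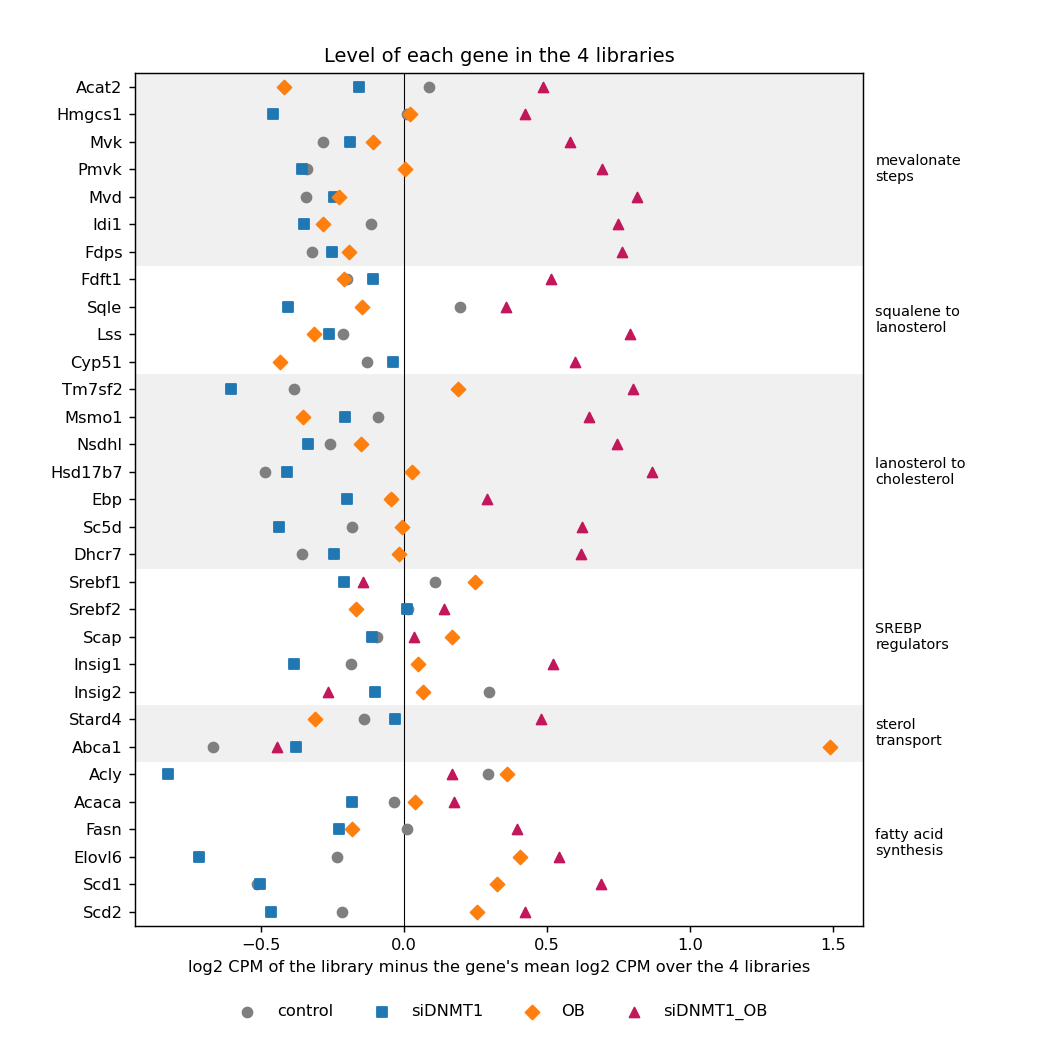
Level of the 31 genes in the 4 libraries, as log2 CPM minus the gene's own mean over the 4 libraries (horizontal axis), with 1 row per gene grouped by role and 1 symbol per library, no replicates. The triangles of the library labelled siDNMT1_OB lie furthest right for all 18 sterol enzymes, and the OB symbol of Abca1 stands apart from its other libraries.

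By the size rule of a 2-fold change (log2 fold change of at least 1), 5 genes were higher in the OB pair (Cyp51, Idi1, Lss, Msmo1 and Mvd) against 2.36% of the tested genes, and 1, Abca1, was lower against 1.37%. At 1.5-fold, 16 of the 31 were higher against 6.73% and 1 was lower against 4.80%. In the untreated pair, 0 of the 31 passed 2-fold upward against 1.97%, and 1, Acly, passed downward against 1.37%. At 1.5-fold, 0 were higher against 6.37%, and Acly and Sqle were lower against 4.49%.

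The 7 enzymes that lead from acetyl-CoA to farnesyl pyrophosphate had a median log2 change of 0.90 in the OB pair and −0.02 in the untreated pair. Acat2 (ENSMUSG00000023832, chromosome 17 from 12942890 to 12960747), the cytosolic thiolase that joins acetyl-CoA units, had 171 CPM in control against 144 in siDNMT1, and 121 in OB against 225 in the library labelled siDNMT1_OB. OB held the lowest of these values and the library labelled siDNMT1_OB the highest, and the log2 fold change was −0.25 (95% counting interval −0.31 to −0.18) in the untreated pair against 0.90 (95% counting interval 0.84 to 0.97) in the OB pair. Hmgcs1 (ENSMUSG00000093930, chromosome 13 from 119690379 to 119708260), the cytosolic synthase of the next step, had 299.6 CPM in control against 217 in siDNMT1, and 302 in OB against 399 in the library labelled siDNMT1_OB, a fold change of −0.47 in the untreated pair against 0.40 in the OB pair on the log2 scale. Its low value was siDNMT1, and control and OB were nearly level.

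Mvk, the mevalonate kinase, had 68.9 CPM in control against 73.7 in siDNMT1, and 77.8 in OB against 125 in the library labelled siDNMT1_OB. Pmvk, which adds the second phosphate, had 24.1 CPM in control against 23.8 in siDNMT1, and 30.6 in OB against 49.3 in the library labelled siDNMT1_OB. For both kinases the OB pair gave a log2 fold change of 0.69, and the untreated pair gave 0.10 for Mvk and −0.02 for Pmvk. Mvd (ENSMUSG00000006517, chromosome 8 from 122433601 to 122443422), the decarboxylase that yields isopentenyl pyrophosphate, had 29.6 CPM in control against 31.7 in siDNMT1, and 32.1 in OB against 66.1 in the library labelled siDNMT1_OB. Its 3 lower libraries differed little and its OB pair log2 fold change was 1.04 (95% counting interval 0.92 to 1.17). Idi1 (ENSMUSG00000058258, chromosome 13 from 8885501 to 8892451), the isomerase of that product, had 207 CPM in control against 176 in siDNMT1, and 184 in OB against 376 in the library labelled siDNMT1_OB. The siDNMT1 library was the lowest for Idi1, and the log2 fold change was −0.24 (95% counting interval −0.29 to −0.18) in the untreated pair against 1.03 (95% counting interval 0.98 to 1.08) in the OB pair. Fdps, the farnesyl pyrophosphate synthase, was counted at a low level, with 227 counts in control against 225 in siDNMT1, and 207 in OB against 474 in the library labelled siDNMT1_OB. It shares 1124 exon bases with Gm43738 on the same strand, so its level is uncertain. Its OB pair log2 fold change, 0.95 (95% counting interval 0.71 to 1.20), had the widest counting interval among the sterol enzymes.

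The 4 enzymes from squalene to lanosterol and its demethylation had a median of 0.88 in the OB pair and 0.02 in the untreated pair. Fdft1, the squalene synthase, had 161 CPM in control against 171 in siDNMT1, and 159.6 in OB against 263 in the library labelled siDNMT1_OB. Only the last of these stood apart, with a log2 fold change of 0.72 in the OB pair against 0.09 in the untreated pair. Sqle (ENSMUSG00000022351, chromosome 15 from 59315077 to 59331192), the squalene epoxidase and a rate-limiting enzyme of the pathway, had 232 CPM in control against 153 in siDNMT1, and 183 in OB against 259 in the library labelled siDNMT1_OB. It was the sterol enzyme with the most negative value in the untreated pair, −0.60 (95% counting interval −0.66 to −0.54), and it had a value of 0.50 (95% counting interval 0.45 to 0.56) in the OB pair. Lss (ENSMUSG00000033105, chromosome 10 from 76531588 to 76557138), which closes the rings to make lanosterol, had 140.4 CPM in control against 136 in siDNMT1, and 131 in OB against 282 in the library labelled siDNMT1_OB. Its log2 fold change was −0.05 (95% counting interval −0.11 to 0.02) in the untreated pair against 1.10 (95% counting interval 1.04 to 1.17) in the OB pair, the highest of the 31 genes there. Cyp51 (ENSMUSG00000001467, chromosome 5 from 4081145 to 4104746), the lanosterol demethylase, had 226 CPM in control against 241 in siDNMT1, and 183 in OB against 375 in the library labelled siDNMT1_OB. The OB library was its lowest, and the OB pair gave 1.03 (95% counting interval 0.98 to 1.08) against 0.09 in the untreated pair.

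The 7 enzymes from lanosterol to cholesterol had a median of 0.64 in the OB pair and −0.12 in the untreated pair. Tm7sf2, a sterol reductase, had 17.7 CPM in control against 15.2 in siDNMT1, and 26.4 in OB against 40.2 in the library labelled siDNMT1_OB, with both induced libraries above both untreated ones. Msmo1 (ENSMUSG00000031604, chromosome 8 from 64718139 to 64733792), which oxidises the methyl groups of the sterol ring, had 250.5 CPM in control against 231 in siDNMT1, and 209 in OB against 418 in the library labelled siDNMT1_OB. Its OB pair log2 fold change of 1.00 (95% counting interval 0.95 to 1.05) lay on the 2-fold line and was under it at 0.97 with total count scaling, 0.98 with upper quartile scaling and 0.99 with factors from the pair alone. Nsdhl, the dehydrogenase that works with it, had 82.1 CPM in control against 77.8 in siDNMT1, and 88.5 in OB against 164 in the library labelled siDNMT1_OB. Hsd17b7, the reductase that completes that step, had 57.5 CPM in control against 60.6 in siDNMT1, and 82.0 in OB against 147 in the library labelled siDNMT1_OB. The OB pair gave 0.89 for Nsdhl and 0.84 for Hsd17b7, against −0.08 and 0.08 in the untreated pair.

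Ebp, the sterol isomerase, had 38.9 CPM in control against 35.0 in siDNMT1, and 38.9 in OB against 49.1 in the library labelled siDNMT1_OB, and its OB pair log2 fold change, 0.34 (95% counting interval 0.21 to 0.46), was the smallest of the 18. Sc5d, a sterol desaturase, had 61.7 CPM in control against 51.7 in siDNMT1, and 69.8 in OB against 108 in the library labelled siDNMT1_OB. Dhcr7, the reductase that ends the Kandutsch-Russell branch, had 27.1 CPM in control against 29.3 in siDNMT1, and 34.2 in OB against 53.3 in the library labelled siDNMT1_OB. The OB pair log2 fold changes of Sc5d and Dhcr7 were 0.63 and 0.64, and those of the untreated pair were −0.25 and 0.11. Set against the mean of the other 3 libraries, the library labelled siDNMT1_OB held from 1.31 times (Ebp) to 2.20 times (Hsd17b7) as much of each sterol enzyme.

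**Figure D2:**
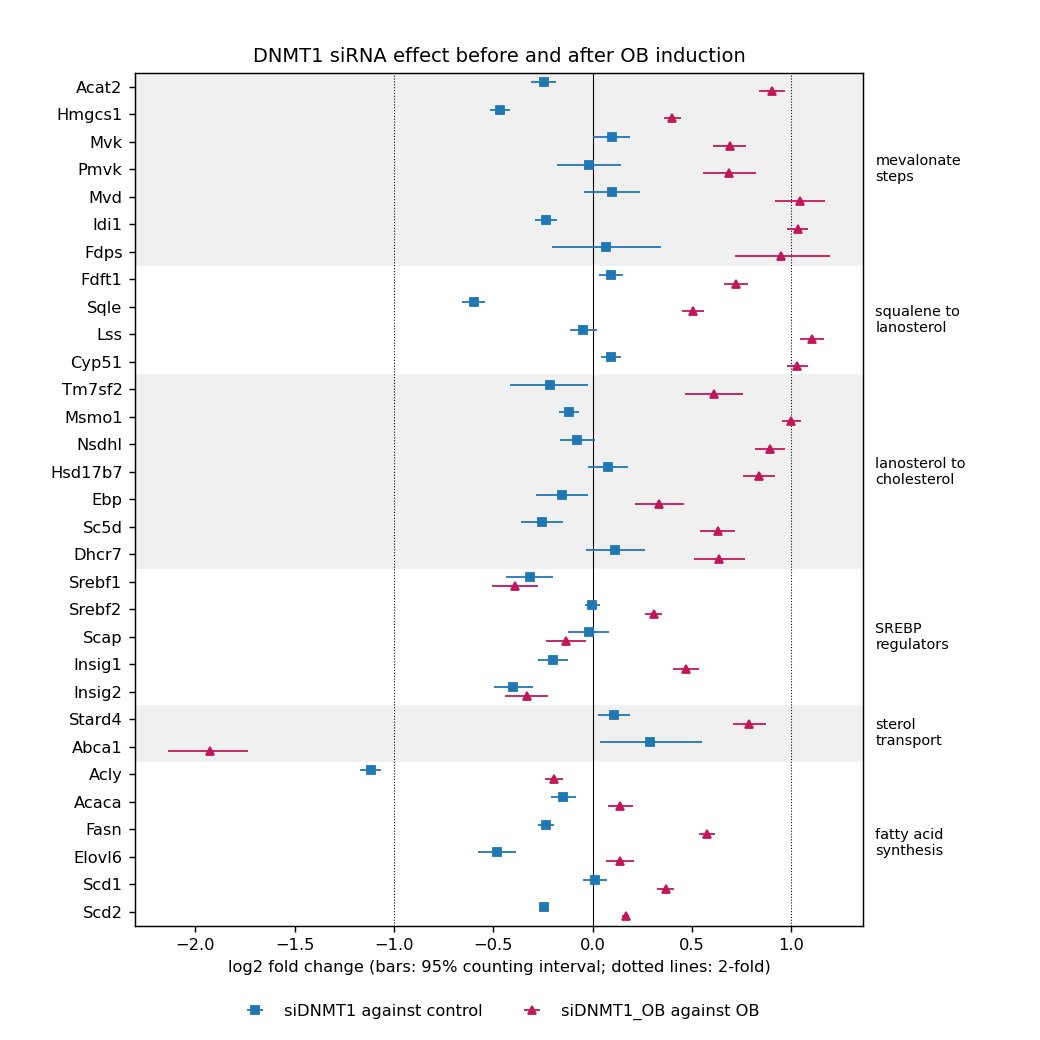
Log2 fold change of each gene (horizontal axis) in siDNMT1 against control (blue squares) and in the library labelled siDNMT1_OB against OB (red triangles), with 95% counting intervals as bars, 1 library per group. The triangles of the 18 sterol enzymes lie between 0.34 and 1.10, the squares between −0.60 and 0.11.

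The 5 regulators of the SREBP pathway had a median of −0.13 in the OB pair, where 2 were positive and 3 negative, and −0.20 in the untreated pair, where all 5 were negative, Srebf2 only under part of the scalings. Srebf2, which encodes the SREBP form tied mainly to sterol genes, had 402 CPM in control against 402 in siDNMT1, and 355 in OB against 439 in the library labelled siDNMT1_OB, and its log2 fold change was 0.31 (95% counting interval 0.27 to 0.35) in the OB pair and −0.0012 in the untreated pair. Srebf1, tied mainly to fatty acid genes, had 51.6 CPM in control against 41.4 in siDNMT1, and 56.9 in OB against 43.4 in the library labelled siDNMT1_OB. Its log2 fold change was negative in both pairs, at −0.32 (95% counting interval −0.43 to −0.20) in the untreated pair and −0.39 (95% counting interval −0.51 to −0.27) in the OB pair. Scap, the escort of both SREBPs, had 59.0 CPM in control against 58.2 in siDNMT1, and 70.8 in OB against 64.5 in the library labelled siDNMT1_OB, with log2 fold changes of −0.02 in the untreated and −0.13 in the OB pair.

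Insig1 (ENSMUSG00000045294, chromosome 5 from 28071363 to 28078662), an endoplasmic reticulum anchor that is itself a target of SREBP, had 118 CPM in control against 103 in siDNMT1, and 139 in OB against 192 in the library labelled siDNMT1_OB. Like the sterol enzymes it was highest in the last of these, with a log2 fold change of −0.20 (95% counting interval −0.27 to −0.12) in the untreated pair against 0.47 (95% counting interval 0.41 to 0.54) in the OB pair. Insig2 (ENSMUSG00000003721, chromosome 1 from 121304353 to 121332589), its paralog, had 75.9 CPM in control against 57.6 in siDNMT1, and 64.6 in OB against 51.3 in the library labelled siDNMT1_OB. The log2 fold change of Insig2 was negative in both pairs, at −0.40 (95% counting interval −0.50 to −0.30) in the untreated pair and −0.33 (95% counting interval −0.44 to −0.23) in the OB pair. The ratio of Insig1 to Insig2, taken per transcript length as TPM, was 1.74 in control against 2.00 in siDNMT1, and 2.41 in OB against 4.20 in the library labelled siDNMT1_OB. The corresponding TPM ratio of Srebf1 to Srebf2 was 0.164, 0.131, 0.204 and 0.126 in the same order, lower with the DNMT1 siRNA in both states.

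Among the sterol transport genes, Stard4, a cytosolic sterol carrier, had 88.2 CPM in control against 94.9 in siDNMT1, and 78.3 in OB against 135 in the library labelled siDNMT1_OB. Its log2 fold change in the OB pair was 0.79 (95% counting interval 0.71 to 0.87), close to the enzymes' median. Abca1 (ENSMUSG00000015243, chromosome 4 from 53030787 to 53159895), which moves cholesterol out of the cell, ran the other way. It had 237 counts in control against 274 in siDNMT1, and 882 in OB against 273 in the library labelled siDNMT1_OB, equal to 8.74 CPM in control against 10.7 in siDNMT1, and 39.0 in OB against 10.2 in the library labelled siDNMT1_OB. OB alone was high, and the other 3 libraries lay between 8.74 and 10.7 CPM. The log2 fold change was 0.29 (95% counting interval 0.04 to 0.55) in the untreated pair against −1.93 (95% counting interval −2.14 to −1.74) in the OB pair, where Abca1 ranked 13th from the bottom of the 13233 genes. In OB against control it was 2.15 (95% counting interval 1.95 to 2.37), and in the library labelled siDNMT1_OB against siDNMT1 it was −0.07 (95% counting interval −0.32 to 0.18).

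The 6 fatty acid synthesis genes had a median log2 change of 0.15 in the OB pair and −0.24 in the untreated pair. Acly (ENSMUSG00000020917, chromosome 11 from 100476353 to 100528000), the ATP-citrate lyase that supplies cytosolic acetyl-CoA, had 325 CPM in control against 149.9 in siDNMT1, and 341 in OB against 298 in the library labelled siDNMT1_OB. The siDNMT1 library alone was low, with a log2 fold change of −1.12 (95% counting interval −1.17 to −1.06) in the untreated pair against −0.19 (95% counting interval −0.24 to −0.15) in the OB pair. Acaca, the acetyl-CoA carboxylase, had 155 CPM in control against 140.1 in siDNMT1, and 163 in OB against 179 in the library labelled siDNMT1_OB, a narrow range. Fasn (ENSMUSG00000025153, chromosome 11 from 120805846 to 120824547), the fatty acid synthase, had 395 CPM in control against 336 in siDNMT1, and 347 in OB against 516 in the library labelled siDNMT1_OB. It was the fatty acid gene furthest above 0 in the OB pair, at 0.58 (95% counting interval 0.54 to 0.62), against −0.24 in the untreated pair.

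Elovl6, which lengthens palmitate, had 78.8 CPM in control against 56.4 in siDNMT1, and 123 in OB against 135 in the library labelled siDNMT1_OB, with both induced libraries above both untreated ones and an OB pair value of 0.14 on the log2 scale. Scd1, a stearoyl-CoA desaturase, had 164 CPM in control against 165 in siDNMT1, and 293 in OB against 378 in the library labelled siDNMT1_OB. Scd2, its paralog and the most abundant of the 31 by TPM in every library, had 1423 CPM in control against 1199.9 in siDNMT1, and 1976 in OB against 2219 in the library labelled siDNMT1_OB. For the desaturases the larger step was between states, and their OB pair log2 fold changes were 0.37 for Scd1 and 0.17 for Scd2. The TPM ratio of Scd1 to Scd2 was 0.130 in control against 0.156 in siDNMT1, and 0.167 in OB against 0.192 in the library labelled siDNMT1_OB.

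To ask what OB induction did to these genes with each siRNA, OB was compared with control and the library labelled siDNMT1_OB with siDNMT1. These comparisons reuse the 4 libraries of the pairs above. With control siRNA the sterol enzymes had a median log2 change of 0.06, from −0.51 for Acat2 to 0.57 for Tm7sf2, with 11 positive and 7 negative; the signs of Hmgcs1, Fdft1 and Ebp, all near 0, turned with the scaling. All 4 enzymes from squalene to lanosterol demethylation were negative, with Sqle at −0.34, Cyp51 at −0.30, Lss at −0.10 and Fdft1 at −0.01, the last not in every scaling. Only 1 of the 31, Abca1, was 2-fold higher, against 10.6% of the tested genes, and 0 were 2-fold lower, against 7.10%. At 1.5-fold, Abca1, Scd1 and Elovl6 were higher against 19.1%, and 0 were lower against 15.3%.

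In the library labelled siDNMT1_OB against siDNMT1 the 18 sterol enzymes had a median of 0.94 and all were positive, from 0.49 for Ebp to 1.40 for Tm7sf2. In all, 11 of the 31 genes were 2-fold higher (Elovl6, Fdps, Hsd17b7, Idi1, Lss, Mvd, Nsdhl, Pmvk, Sc5d, Scd1 and Tm7sf2) against 6.83% of the tested genes, and 0 were 2-fold lower against 2.71%. At 1.5-fold, 23 were higher against 14.1% and 0 were lower against 8.90%. The largest after Tm7sf2 were Hsd17b7 at 1.27 (95% counting interval 1.19 to 1.36), Elovl6 at 1.26 (95% counting interval 1.17 to 1.35) and Scd1 at 1.19 (95% counting interval 1.14 to 1.24). Fdps, at 1.01 (95% counting interval 0.78 to 1.25), lay on the line and was under it, at 0.98, with factors over all genes, and likewise with total count and DESeq2 scaling. Acly, at 0.99, stayed just under it. All 6 fatty acid genes were positive, with a median of 0.94, while Insig2 was at −0.16 and Srebf1 at 0.07.

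The siDNMT1 effect of the OB pair minus that of the untreated pair was computed per gene, on the log2 scale. It was positive for 28 of the 31 genes, with a median of 0.71 over the 31 and 0.88 over the 18 enzymes, against 0.0045 over all tested genes. It reached at least 1 for Idi1 (1.27, 1.19 to 1.34), Acat2 (1.15, 1.06 to 1.24), Lss (1.15, 1.06 to 1.24), Msmo1 (1.12, 1.05 to 1.19) and Sqle (1.10, 1.02 to 1.18), 5 genes in all, against 3.27% of the tested genes. It was −1 or lower for Abca1 alone (−2.22, −2.53 to −1.90), against 2.95%. The other negative differences, Scap at −0.11 and Srebf1 at −0.07, were small. The intervals in brackets are 95% counting intervals, and with 1 library per group this difference has no test.

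An additive edgeR fit of siRNA and induction over the 4 libraries leaves 1 residual degree of freedom and takes any difference of effects as noise, so it was used only as an alternative. Its quasi-likelihood test with Benjamini-Hochberg adjustment called 5 of the 31 genes higher with induction (Elovl6, Hsd17b7, Scd1, Scd2 and Tm7sf2), against 12.0% of the tested genes, and 0 lower, against 9.09%. Averaged over both siRNAs, induction gave a 2-fold higher level for Abca1 and Scd1, 2 genes, against 8.13%. For the siRNA, the edgeR fit called 0 of the 31 and 0.00% of the tested genes. At an unadjusted p under 0.05 the fit had 1148 of the 13233 tested genes, 546 of them lower. Of the 31 genes it had 3, all lower (Acly, Insig2 and Srebf1).

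The rest of the lipid pathway was taken from a list of 42 further genes, 38 of which passed the filter. Their median log2 fold change was 0.05 in the OB pair (20 positive, 18 negative) and −0.06 in the untreated pair, beside medians of 0.01 and −0.0014 over all tested genes. The list pools several groups. The 10 tested genes of fatty acid elongation, desaturation and NADPH supply had a median of 0.18 in the OB pair and −0.07 in the untreated pair. In the OB pair 9 of them were positive, as were 52.2% of all tested genes. The 8 genes of sterol uptake, esterification and transport had −0.18 and −0.11. Both OB pair medians lay near the quartiles of all tested genes there, −0.165 and 0.196. At 1.5-fold, 3 of the 38 were higher in the OB pair, close to the 6.73% of all tested genes. Another 3 were lower (Npc2, Acacb and Nr1h3), against 4.80%. Nr1h3 passed the filter only through its OB level, so its place among the lower genes carries no weight. The 2 higher genes beside Lrp8, named after their values were seen, were Aacs, a synthetase that makes acetoacetyl-CoA (0.70, against −0.04 in the untreated pair), and Hsd17b12, a reductase of fatty acid elongation (0.69 against −0.04). By the 2-fold rule, 1 of the 38 was higher in the OB pair, close to the 2.36% of all tested genes. This was Lrp8, a receptor of the low-density lipoprotein receptor family, with 81.8 CPM in control against 53.3 in siDNMT1, and 19.3 in OB against 39.5 in the library labelled siDNMT1_OB. Vldlr, of the same sterol uptake group and named after its values were seen, ran the other way. Its log2 fold change was −0.22 in the OB pair and 0.50 in the untreated pair. Another, Npc2, which hands cholesterol out of lysosomes, was the 1 gene 2-fold lower in either pair, against 1.37% of the tested genes in each, with 319 CPM in control against 140.1 in siDNMT1, and 588 in OB against 272 in the library labelled siDNMT1_OB and log2 fold changes of −1.19 (95% counting interval −1.25 to −1.13) and −1.11 (95% counting interval −1.15 to −1.07).

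The LXR list was read beside Abca1. In the untreated pair 2 of the 4 tested genes of the list were positive and 2 negative. Nr1h3 passed the filter only through its OB level, so its directions on induction and in the OB pair carry no weight. The other 3 were negative in the OB pair, from −0.49 to −0.22, where 52.2% of all tested genes were positive. In OB against control the other 3 were positive, as were 50.7% of all tested genes, and the smallest, Nr1h2 (named after its values were seen), was at 0.08 (95% counting interval −0.02 to 0.18), within counting error. Lpcat3, a phospholipid acyltransferase also named after its values were seen, was negative in both pairs (−0.38 untreated and −0.33 in the OB pair). It had 0.76 in OB against control and 0.81 in the library labelled siDNMT1_OB against siDNMT1, unlike Abca1. Nr1h3, which encodes LXRα, had 4 counts in control against 6 in siDNMT1, and 62 in OB against 47 in the library labelled siDNMT1_OB. Mylip, an LXR target that marks lipoprotein receptors for breakdown, had 30.9 CPM in control against 34.2 in siDNMT1, and 97.8 in OB against 69.8 in the library labelled siDNMT1_OB, 2-fold higher in both induction comparisons, at 1.66 and 1.03. Its OB pair value was −0.49 (95% counting interval −0.58 to −0.40), nearer 0 than that of Abca1. Ch25h, which makes an oxysterol, had 5.97 CPM in control against 4.18 in siDNMT1, and 1.46 in OB against 1.27 in the library labelled siDNMT1_OB. Acacb, the mitochondrial carboxylase, had 2.32 CPM in control against 2.50 in siDNMT1, and 6.81 in OB against 4.30 in the library labelled siDNMT1_OB, with OB the highest, as for Abca1.

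**Figure D3:**
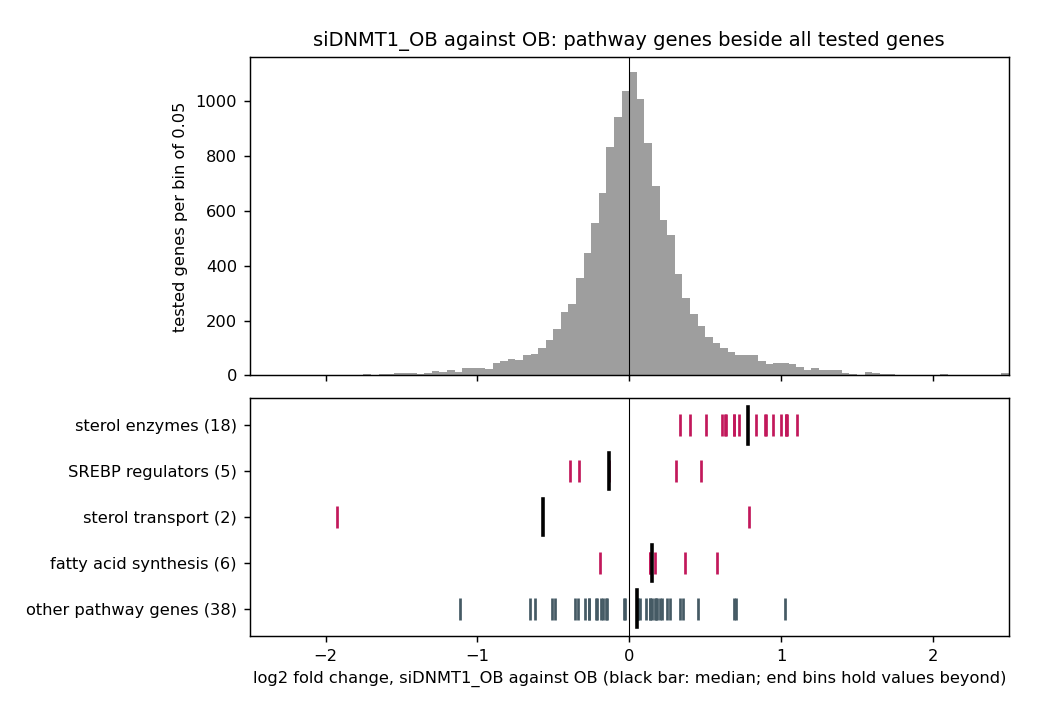
Log2 fold change of the library labelled siDNMT1_OB against OB for all 13233 tested genes (upper panel, number of genes per bin of 0.05) and, as ticks, for the gene groups (lower panel, number of genes in brackets, black bar the median). The 18 sterol enzymes all lie right of 0 with a median of 0.78, and the 38 other pathway genes are spread about 0.05.

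Markers of cycling cells moved in the OB pair as well. All 10 were higher there, from 0.64 to 1.16 with a median of 0.99, and their summed level was 2403 CPM in control against 2132 in siDNMT1, and 517 in OB against 1005 in the library labelled siDNMT1_OB. In OB against control all 10 were lower, with a median of −2.13, while the sterol enzymes had a median of 0.06, and in the library labelled siDNMT1_OB against siDNMT1 the markers had a median of −0.94 and the enzymes 0.94. Dnmt1 itself was also lower on induction, at −1.63 in OB against control and −0.50 in the library labelled siDNMT1_OB against siDNMT1. The part of cell cycling in the OB pair values, that of Dnmt1 among them, was not tested.

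**Figure D4:**
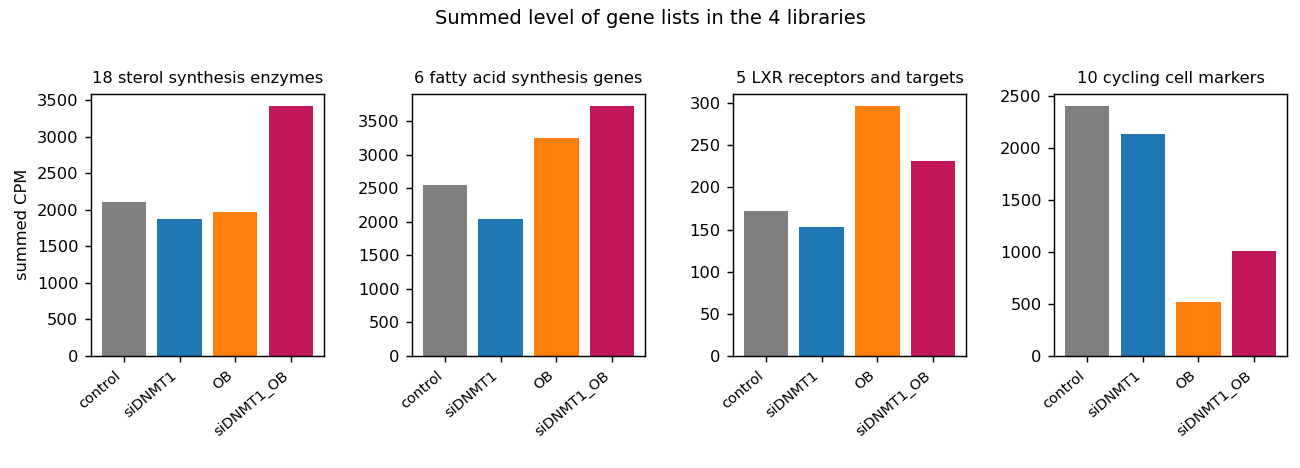
Summed CPM (vertical axis, from 0, own scale per panel) of 4 gene lists in the 4 libraries, 1 bar per library, no replicates. The sterol enzymes were highest in the library labelled siDNMT1_OB at 3417 CPM, the LXR list in OB at 297 CPM and the cycling markers in control at 2403 CPM.

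Some of these counts are uncertain because the use of strand and the treatment of reads with several positions were not given in the sources used here. Near-identical copies were found for Idi1 (Gm13502, identical over 684 bases, with 658, 584, 500 and 1266 counts), Acat2 (Acat3, 97.7%) and Acaca (Gm5182, 99.2%), and for Fdps, Fdft1 and Elovl6 as pseudogenes with 28 counts or fewer in any library. Scd1 and Scd2 share 623 bases at 95.5% identity. Fdft1 overlaps Ctsb on the opposite strand by 774 exon bases, and Ctsb held 14690, 6364, 14739 and 9787 counts in the 4 libraries. Cyp51 overlaps Akap9 on the opposite strand by 166 bases, and Tm7sf2 shares 532 bases with Vps51 on the same strand. Hmgcs1 and Lss overlap the antisense genes Gm48342 and 4930483K19Rik by 557 and 381 bases, Srebf1 overlaps Rai1 by 109 bases, Scap overlaps 5830462I19Rik, and Idi1 overlaps Gm48574, which held at most 1 count, by 323 bases on the opposite strand. Fdps shares 1124 exon bases on the same strand with the protein-coding gene Gm43738, the longest overlap found, and Gm43738 held 0 or 1 count in each library.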

How the data were processed

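Per the labels and the study's methods, mRNA libraries of 4 samples passed through Trimmomatic for trimming, HISAT2 for alignment and featureCounts for counting. The submitters' processing notes name the build mm10. Versions for the RNA reads were not given in the sources used here. The authors deposited 1 table of raw counts per gene, with no normalization, and 0 sample columns were left unused. From the counts, TMM factors (0.991 to 1.01; edgeR 4.0.16 in R 4.3.3) were computed over the 13233 genes whose CPM averaged 1 or more, and log2 fold changes from CPM with a prior count of 2. Counting intervals of the pairwise fold changes are exact (Clopper-Pearson, 95%). Those of the differences of effects are normal approximations from the counts. Reads carried no molecular identifiers. Total counts of 22296046 to 27367792 put 3 counts, the floor, at 0.111 to 0.133 CPM. TPM used the table's exon lengths. Table positions matched GENCODE M21 (GRCm38) for 98.3% of shared genes.

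The 31 genes and the gene lists were chosen with earlier results of these data known. Every one of the 31 is named. Of the other pathway genes, at most 6 past 2-fold in some comparison were to be named. Vldlr, Aacs, Hsd17b12, Nr1h2 and Lpcat3 were added to these after their values were seen. Vldlr was past 2-fold as well, at −1.50 in the library labelled siDNMT1_OB against siDNMT1. Copies were sought with blastn 2.17.0. The calculations were tested on simulated data. Alternatives were other scalings, DESeq2 1.42.0 size factors, prior count 0.5, other filters, a read test and the additive edgeR fit. RefSeq proteins were not used here.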

Additional observations from a re-analysis of the deposited data

Results flagged for a closer look

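For 5 genes the effect of the DNMT1 siRNA ran in opposite directions in the untreated pair and the OB pair, with both 95% counting intervals clear of 0, and differed by at least 1 on the log2 scale. The difference, OB pair minus untreated pair, was 1.15 for Acat2, 1.27 for Idi1, 1.10 for Sqle and 1.12 for Msmo1. For Abca1 it was −2.22. How many of all tested genes meet these conditions together was not counted, so the 5 cannot be set against a background. A difference of at least 1, in whatever directions, was reached by 3.27% of the tested genes, and one of −1 or lower by 2.95%. With 1 library per group the difference was not tested. The value of each gene in the OB pair comes from the library labelled siDNMT1_OB, in which Dnmt1 was not lower than in OB.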

How the results depend on the processing

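Total count, upper quartile and DESeq2 scaling, another prior count, no filter, a stricter filter, a read test and the additive fit were tried, and TMM factors from each pair alone and over all genes were added after seeing the data. Of 204 recomputed counts and medians, 203 stayed within the limits set, and 0 called values changed sign. The exception was the number of genes higher with induction averaged over both siRNAs, 2 by the 2-fold rule and 5 in the additive edgeR fit, which uses a test and not a size. The 2-fold count of the OB pair ran from 4 to 5 and its 1.5-fold count from 15 to 17. The 2-fold count of the library labelled siDNMT1_OB against siDNMT1 ran from 10 to 11. Of 1240 values for single genes, 16 moved beyond their counting interval, those of Scd2, Srebf2, Fasn, Hmgcs1 and Acly. All 31 genes kept their sign in the OB pair under every scaling, 30 in the untreated pair and 28 in OB against control. No paired analysis was possible because each group has 1 library and the labels give no replicate numbers that pair them. The additive fit is the nearest to one, with an siRNA effect common to both states. It called 0 genes for the siRNA at an adjusted p under 0.05, with 1148 at an unadjusted p under 0.05. An effect that differs between the states counts as noise in that fit. No library could be left out of a pairwise comparison. The lowest count of any of the 31 genes was 207 (Fdps in OB), and the spread between cultures is unknown.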
